A study of Mus musculus with 2 samples.

Results

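Intermediate filaments are the ropelike protein polymers that give a cell and its nucleus mechanical strength. The genes described here are 10 members of this family, chosen by symbol in the deposited table of 17359 genes, and all 10 were listed. They comprise 4 neuronal filament genes (Ina, Nefl, Nefm and Nefh), 3 filament genes of neural progenitors and glia (Nes, Vim and Gfap) and 3 nuclear lamin genes (Lmna, Lmnb1 and Lmnb2). The cells were mouse neural stem cells transfected with an siRNA against Chd4 (siChd4, labelled as a Chd4 knockdown, 1 library) or with a scrambled siRNA (siSCR, labelled as control, 1 library). Both RNA-seq libraries came from total RNA. The labels used here say nothing of the origin, age or passage of the cells, nor of how much siRNA was used and for how long. Chd4 encodes an ATPase that moves nucleosomes as part of the NuRD complex.

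Subunits of all intermediate filaments share a coiled-coil rod and assemble without nucleotide, unlike actin or tubulin. Which subunits a neural cell makes follows its stage: progenitors and radial glia make nestin (Nes) and vimentin (Vim), maturing astrocytes add glial fibrillary acidic protein (Gfap), and neurons make alpha-internexin (Ina) early and then the neurofilament light, medium and heavy chains (Nefl, Nefm and Nefh), which set the calibre of axons. Lamins line the inner face of the nuclear envelope. Lmna gives lamins A and C by alternative splicing, and Lmnb1 and Lmnb2 give the B-type lamins, which dividing and early neural cells make in quantity.

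The promoters of Ina, which had the highest fold among members with a mean of at least 1 TPM, and of Vim and Nes, the most abundant cytoplasmic members, are shown because the levels below are those of RNA from these start sites or from others of the same genes. Windows run from 250 bases before to 50 bases after an annotated start (RefSeq, GRCm38.p6). Capitals mark matches on either strand to the TATA box (TATAAA), the CCAAT box (CCAAT) and the GC box (GGGCGG).
Ina (chr19:47014431-47014730, plus strand): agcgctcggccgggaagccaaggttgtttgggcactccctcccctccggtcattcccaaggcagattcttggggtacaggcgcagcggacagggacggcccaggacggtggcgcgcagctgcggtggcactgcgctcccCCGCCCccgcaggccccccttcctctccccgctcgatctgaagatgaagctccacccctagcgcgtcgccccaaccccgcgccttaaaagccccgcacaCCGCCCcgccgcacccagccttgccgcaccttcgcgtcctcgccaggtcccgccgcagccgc
Vim (chr2:13574061-13574360, plus strand): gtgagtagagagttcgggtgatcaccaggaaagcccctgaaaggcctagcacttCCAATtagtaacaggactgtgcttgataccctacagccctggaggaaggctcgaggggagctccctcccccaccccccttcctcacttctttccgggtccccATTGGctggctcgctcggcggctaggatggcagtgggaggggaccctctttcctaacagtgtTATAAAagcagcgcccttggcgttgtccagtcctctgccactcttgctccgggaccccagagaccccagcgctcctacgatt
Nes (chr3:87970843-87971142, plus strand): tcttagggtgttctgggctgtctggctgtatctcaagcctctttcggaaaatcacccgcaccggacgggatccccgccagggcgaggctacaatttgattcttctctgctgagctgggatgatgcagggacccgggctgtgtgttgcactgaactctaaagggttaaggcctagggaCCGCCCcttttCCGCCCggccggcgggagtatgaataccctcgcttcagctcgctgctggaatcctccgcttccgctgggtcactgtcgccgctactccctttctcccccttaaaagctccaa
The Ina window was 71.7% G or C, against 59.3% for Vim, 58.7% for Nes and a median of 52.7% over the 32851 windows of the table. The Ina and Nes windows each held 2 GC boxes, which 35.7% of all windows hold at least once. The Vim window held a TATA box at position -32, a motif found in 13.6% of all windows, and 2 CCAAT boxes, found in 37.4%. The AP-1 element (TGACTCA), also searched on both strands, had no match in these 3 windows and was found in 5.20% of all windows. Windows were available for 6 of the 10 members. A match is a description of letters, and no binding was measured.

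The libraries held 20072009 estimated counts (siChd4) and 19816811 estimated counts (siSCR). Levels are in TPM, a unit of transcript abundance with a fixed total per library, which adjusts for transcript length, so that genes can be compared within a library. Ratios are siChd4 over siSCR, as folds of TPM with an exact 95% interval that covers counting error only, or as log2 ratios of TPM plus 1. Each group held 1 library, so conditions were not tested against each other and no value has a check against the spread between cultures. In bulk RNA, more cells of a type and more RNA per cell cannot be told apart. Chd4 itself was at 203 TPM in siChd4 cells and 250 TPM in siSCR cells, a fold of 0.815 (0.795 to 0.837), and its log2 ratio exceeded that of 19.3% of the 12882 genes with a mean of at least 1 TPM. Its log2 ratio was -0.29, and -0.14 once the trend of ratios with transcript length was subtracted. Markers of the labelled cell type were present. Sox2 was at 336 TPM in siChd4, against 314 TPM in siSCR, and all 8 neural progenitor markers were detected. They summed to 7551 TPM in siChd4 cells and 6643 TPM in siSCR cells, most of it from Fabp7, and the other 7 summed to 548 TPM in siChd4, against 538 TPM in siSCR. Markers of other neural cell types were also present. Astrocyte markers summed to 1952 TPM in siChd4, against 2260 TPM in siSCR. Neuron markers summed to 1172 TPM in siChd4, against 857 TPM in siSCR. Detection of markers thus does not by itself establish the labelled cell type. Microglia markers summed to 0.69 TPM in siChd4, against 0.35 TPM in siSCR.

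The classes of filament genes did not differ alike between the libraries. All 4 neuronal filament genes were higher in siChd4 by more than counting error, Nes and Vim were higher by a smaller amount while the interval of Gfap included no difference, and the lamins went in both directions, with Lmnb1 as the 1 member of the 10 that was lower. Of the 8 members with a mean of at least 1 TPM, 2 (Ina and Nefm) were at least 1.5-fold higher on the TPM plus 1 scale, where 6.75% of all 12882 genes were, and 0 were at least 1.5-fold lower, where 4.47% of all genes were. Both also passed 2-fold, as 2.26% of all genes did. A log2 ratio above 0 was found for 7 of these 8 members and for 44.5% of all genes. The median log2 ratio of the 8 was 0.26, against -0.04 over all genes, whose middle 50% lay between -0.24 and 0.17.

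**Figure D1:**
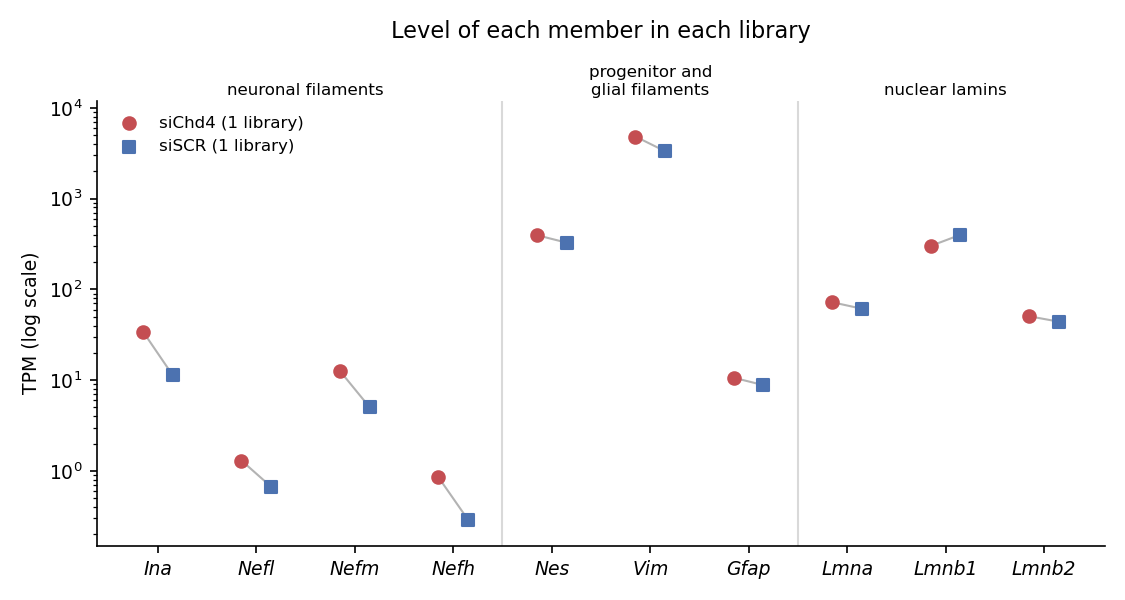
Level of each of the 10 members in TPM (log axis) in the siChd4 library (red circles) and the siSCR library (blue squares), 1 library each, with a line joining the values of a gene. Levels run from below 1 TPM for Nefh to 4835 TPM for Vim, and Lmnb1 is the member whose siChd4 point is the lower one.

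Ina, the neuronal filament subunit made early in differentiation, was at 34.3 TPM in siChd4 cells and 11.4 TPM in siSCR cells, from 916 and 288 estimated counts. Its fold was 3.01 (2.64 to 3.45), with a log2 ratio of 1.51. This exceeded the log2 ratio of 99.3% of the 12882 genes, and among the 4712 genes with a mean level within 2-fold of its own, 24 had a higher one. By level it stood 5646th of all genes in siChd4 and 9320th in siSCR.

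Nefm, the medium neurofilament chain, was at 12.6 TPM in siChd4, against 5.04 TPM in siSCR, from 334 and 127 estimated counts. The fold was 2.502 (2.03 to 3.09) and the log2 ratio 1.17, which exceeded that of 98.5% of all genes. Among 2912 genes of a like level, 82 had a higher log2 ratio.

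Nefl and Nefh, the light and heavy chains, were scarce and fell short of a mean of 1 TPM. Nefl was at 1.30 TPM in siChd4 cells and 0.67 TPM in siSCR cells, from 35.9 and 17.6 estimated counts, a fold of 1.94 whose interval ran from 1.05 to 3.55. Nefh was at 0.85 TPM in siChd4, against 0.29 TPM in siSCR, from 28 and 9 estimated counts, a fold of 2.93 with an interval of 1.35 to 7.06. Both were higher in siChd4 by more than counting error, but the size of the difference is known only within these wide intervals. Their log2 ratios of 0.46 and 0.52 on the TPM plus 1 scale understate the difference, since the pseudocount is as large as the level.

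The 4 neuronal filament genes together summed to 49.1 TPM in siChd4 cells and 17.4 TPM in siSCR cells, a fold of sums of 2.82. Their proportions were close in the libraries. Ina made up 69.9% of the sum in siChd4 and 65.5% in siSCR, and Nefm 25.7% in siChd4 and 29.0% in siSCR. The level of Ina over Nefm was 2.72 in siChd4 and 2.26 in siSCR, a ratio of ratios of 1.20 with an interval of 0.934 to 1.54. For Nefm over Nefl the ratio was 9.70 in siChd4 and 7.52 in siSCR, with an interval of 0.664 to 2.43 on the ratio of ratios. A difference in make-up among the neuronal filaments was thus not detectable at this depth. Nefl, the chain that mature neurofilaments are built on, had the lowest fold of the 4, with an interval that overlaps those of the other 3.

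Annotated exons of 3 neuronal filament genes overlap those of a gene on the opposite strand (GENCODE M21). Ina shares 456 bases with Nt5c2, which was at 41.0 TPM in siChd4, against 36.1 TPM in siSCR. Nefl shares 1108 bases with an annotated transcript of its neighbour Nefm. Nefm was more abundant than Nefl, at 12.6 TPM in siChd4, against 5.04 TPM in siSCR. Whether counting used strand is not stated, so reads from these shared stretches cannot be assigned with certainty. How much of the Nefl count came from the stretch shared with Nefm was not tested. The other 7 members share no exon bases with another annotated gene.

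**Figure D2:**
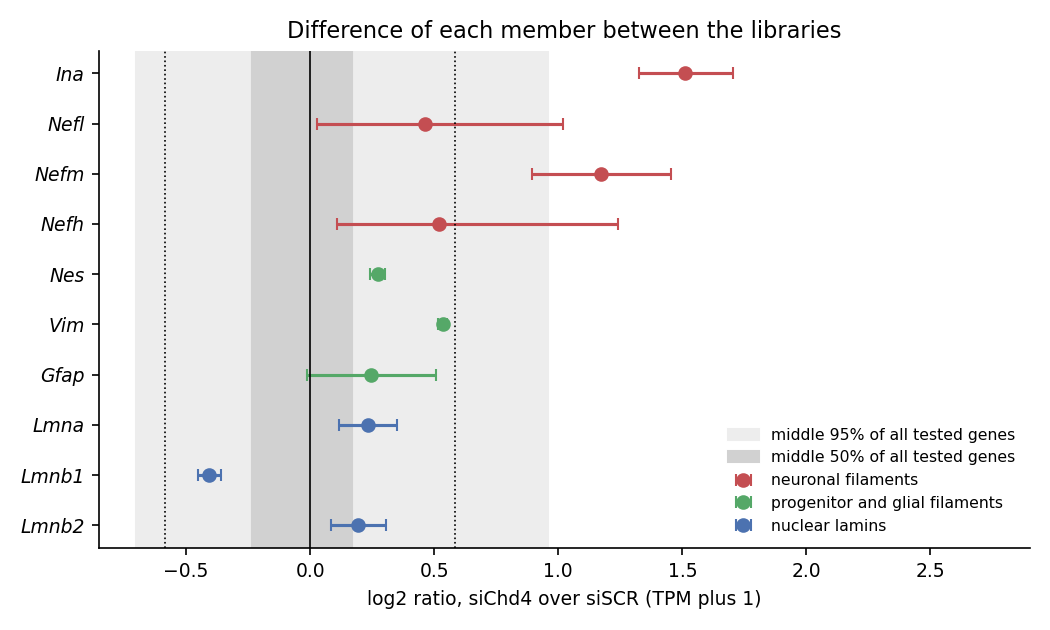
Log2 ratio (siChd4 over siSCR, from TPM plus 1) for each member, with bars for the 95% counting interval, over bands that hold the middle 50% (dark grey) and middle 95% (light grey) of 12882 genes; dotted lines mark a 1.5-fold difference. Ina (1.51) and Nefm (1.17) lie right of the light band, and Lmnb1 (-0.41) lies left of the dark one.

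Vim was the most abundant member in both libraries and ranked 7th of all genes in siChd4 and 11th in siSCR. It was at 4835 TPM in siChd4 cells and 3340 TPM in siSCR cells, from 71827 and 47033 estimated counts. The fold was 1.45 (1.43 to 1.46) with a log2 ratio of 0.53, just under the 1.5-fold limit. Among 30 genes of a like level, 2 had a higher log2 ratio.

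Nes, the large progenitor filament protein that copolymerises with vimentin, was at 396 TPM in siChd4, against 328 TPM in siSCR, a fold of 1.21 (1.18 to 1.23). Gfap, of astrocytes, was at 10.6 TPM in siChd4 cells and 8.81 TPM in siSCR cells, from 236 and 184 estimated counts, a fold of 1.21 (0.991 to 1.47). The interval of Gfap includes 1, so a difference was not detectable at this depth. The log2 ratios of Nes and Gfap, 0.27 and 0.24, exceeded those of 82.5% and 80.8% of all genes.

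Within this group the make-up shifted slightly toward Vim. The level of Vim over Nes was 12.2 in siChd4 and 10.2 in siSCR, a ratio of ratios of 1.20 (1.17 to 1.23). Nes over Gfap was 37.3 in siChd4 and 37.2 in siSCR (1.003, 0.821 to 1.22). Vim accounted for 92.2% of the group's TPM in siChd4 and 90.8% in siSCR. Summed, Nes, Vim and Gfap reached 5242 TPM in siChd4, against 3676 TPM in siSCR, a fold of 1.43, so the 10 members together took 0.572% of all transcripts in siChd4 and 0.420% in siSCR. Set beside Vim within the same libraries, Ina was higher by a further factor of 2.08 (1.82 to 2.38) and Nefm by 1.73 (1.40 to 2.14), which any scaling of the libraries leaves as it is.

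The lamins had opposite differences. Lmnb1, a B-type lamin, was at 302 TPM in siChd4 cells and 400.3 TPM in siSCR cells, from 7021 and 8824 estimated counts. The fold was 0.754 (0.731 to 0.778) and the log2 ratio -0.41. A lower log2 ratio was found for 11.05% of all genes and for 4.59% of 871 genes of a like level. It ranked 498th by level in siChd4 and 366th in siSCR, whereas Nes ranked 366th in siChd4 and 471st in siSCR.

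Lmna was at 72.2 TPM in siChd4, against 61.2 TPM in siSCR, a fold of 1.18 (1.09 to 1.28), and Lmnb2, the other B-type lamin, was at 50.6 TPM in siChd4 cells and 44.1 TPM in siSCR cells, a fold of 1.15 (1.06 to 1.24). Both intervals exclude 1, but differences of this size are common here, since 80.1% and 77.2% of all genes had lower log2 ratios than Lmna and Lmnb2. The deposited values are per gene, so lamin A and lamin C were not separated.

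Lmnb1 over Lmna was 4.18 in siChd4 and 6.54 in siSCR, a ratio of ratios of 0.640 (0.586 to 0.699), and Lmnb1 over Lmnb2 was 5.97 in siChd4 and 9.08 in siSCR (0.657, 0.604 to 0.716). Lmna over Lmnb2 was 1.43 in siChd4 and 1.39 in siSCR (1.03, 0.916 to 1.15), an interval that includes 1, although these genes are of different lamin types. Lmnb1 still made up most of the lamin TPM, at 71.1% in siChd4 and 79.2% in siSCR, and Lmna made up 17.0% in siChd4 and 12.1% in siSCR. The sum of the lamins was 425 TPM in siChd4, against 506 TPM in siSCR.

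**Figure D3:**
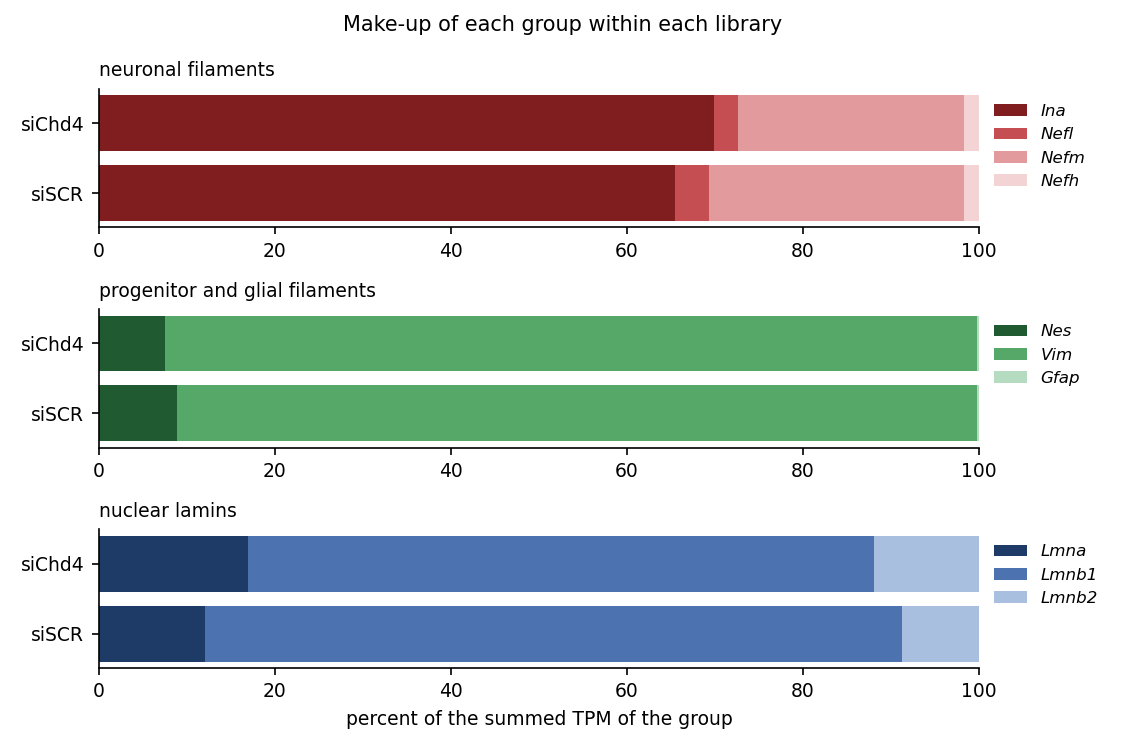
Percent of the summed TPM of each group contributed by each of its genes, in the siChd4 bar (upper) and the siSCR bar (lower) of each panel. The lamin panel differs most, with Lmnb1 at 71.1% in siChd4 and 79.2% in siSCR, while Ina stays between 65.5% and 69.9% of the neuronal filaments.

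Genes of proteins that act with these filaments went in both directions. Of 18 genes for nuclear envelope proteins that bind or anchor lamins, 17 had a mean of at least 1 TPM, 0 passed 1.5-fold, 5 were above 0 and 12 below, with a median log2 ratio of -0.23. Among those above 0 was Sun2, which ties the lamina to the cytoskeleton, at 47.3 TPM in siChd4 cells and 37.9 TPM in siSCR cells (fold 1.25, 1.15 to 1.35). The most abundant were Banf1, which bridges chromatin and the envelope (333 TPM in siChd4 cells and 398 TPM in siSCR cells, fold 0.837, 0.792 to 0.884), and Tmpo, the lamina-associated polypeptide gene (281 TPM in siChd4, against 359 TPM in siSCR, fold 0.784, 0.761 to 0.807). Of 5 enzymes that process the tail of lamin precursors, 0 passed 1.5-fold, 1 was above 0 and 4 below, and the median was -0.11. Among them, the farnesyltransferase subunit gene Fnta was at 87.7 TPM in siChd4 cells and 77.7 TPM in siSCR cells, and the protease gene Zmpste24 at 69.3 TPM in siChd4, against 80.1 TPM in siSCR.

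All 10 mitosis genes examined beside Lmnb1 were below 0, with a median of -0.47 and 3 of them at least 1.5-fold lower, among them the mitotic cyclin gene Ccnb1 (208 TPM in siChd4 cells and 328 TPM in siSCR cells). The log2 ratio of Lmnb1, -0.41, lay within the range of these genes, -0.65 to -0.26. The part of cell division in the level of Lmnb1 was not tested.

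Of 7 genes for large proteins that link filaments to other structures, 3 had a mean of at least 1 TPM, and 0 passed 1.5-fold. Macf1, which crosslinks actin and microtubules, was at 65.9 TPM in siChd4, against 97.7 TPM in siSCR (fold 0.674, 0.657 to 0.691). Dst, the dystonin gene, was at 28.6 TPM in siChd4 cells and 39.9 TPM in siSCR cells (fold 0.716, 0.689 to 0.744). The third, Plec, the gene of the filament linker plectin, was higher, at 13.2 TPM in siChd4, against 9.45 TPM in siSCR (fold 1.40, 1.30 to 1.51). All 3 have long transcripts, with lengths implied by counts and TPM in siChd4 of 18.6 kb (Macf1), 18.9 kb (Dst) and 14.8 kb (Plec). The trend of ratios with transcript length was not subtracted from these folds, and their intervals do not cover it. Of 18 further cytoplasmic intermediate filament genes, 14 were listed and 6 had a mean of at least 1 TPM, with a median of 0.003. The 1 past 1.5-fold was Bfsp2, known as a beaded filament gene of the lens, at 24.9 TPM in siChd4 cells and 13.0 TPM in siSCR cells (fold 1.92, 1.57 to 2.34).

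**Figure D4:**
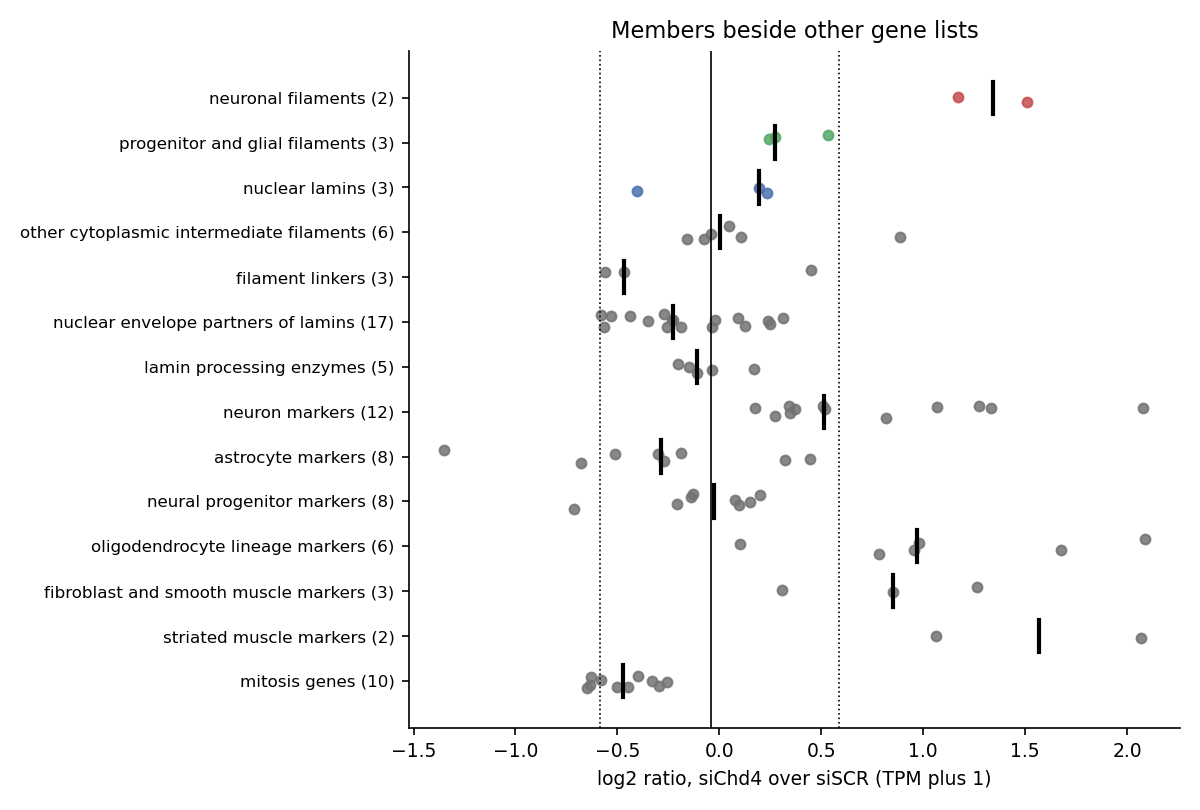
Log2 ratios (siChd4 over siSCR, from TPM plus 1) for genes with a mean of at least 1 TPM, by list, with the number of genes in brackets and a black bar at each median; the vertical line is the median of all 12882 genes (-0.04) and dotted lines mark 1.5-fold. Neuronal filaments lie right of 1, as do some neuron, oligodendrocyte and muscle markers, and mitosis genes all lie left of 0.

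Markers of the cell types that make these filaments are given here beside them. All 12 neuron markers were above 0, with a median of 0.51, and 5 were at least 1.5-fold higher. They included Syn1, of synaptic vesicles, at 33.3 TPM in siChd4, against 13.2 TPM in siSCR (fold 2.53, 2.22 to 2.88). The list summed to 1172 TPM in siChd4 cells and 857 TPM in siSCR cells, most of it from Map2 and Gap43. Map2 was at 516 TPM in siChd4, against 427 TPM in siSCR, and Gap43 at 362 TPM in siChd4, against 255 TPM in siSCR. The intervals of Rbfox3 (0.946 to 2.62) and Stmn2 (0.989 to 3.18) include 1. Of 8 astrocyte markers, 6 were below 0 and 2, Gja1 and Slc1a2, were at least 1.5-fold lower, with a median of -0.28. The 2 above 0 were higher by more than counting error. Aldh1l1 was at 421 TPM in siChd4, against 309 TPM in siSCR (fold 1.36, 1.32 to 1.41). Glul was at 422 TPM in siChd4, against 338 TPM in siSCR (fold 1.25, 1.21 to 1.29). Gfap, whose interval includes 1, was at 10.6 TPM in siChd4, against 8.81 TPM in siSCR. Of 8 neural progenitor markers, 4 were above and 4 below 0, with a median of -0.03, whereas Nes and Vim were above it. Prom1 was the 1 past 1.5-fold, at 4.72 TPM in siChd4 cells and 8.37 TPM in siSCR cells. All 6 oligodendrocyte lineage markers with a mean of at least 1 TPM were above 0 (median 0.97), and 5 were at least 1.5-fold higher. Fibroblast and smooth muscle markers, of cells that also make vimentin, summed to 18.8 TPM in siChd4, against 10.6 TPM in siSCR. Of the 3 with a mean of at least 1 TPM, 2 were at least 1.5-fold higher, Tagln (fold 3.05, 1.95 to 4.95) and Col1a1 (fold 3.06, 1.99 to 4.74). Col1a1 was at 1.96 TPM in siChd4, against 0.64 TPM in siSCR, so it reached that mean only through siChd4. Acta2, the third and most abundant, was at 8.93 TPM in siChd4, against 7.01 TPM in siSCR, with an interval that includes 1 (0.954 to 1.72). Dcn and Lum of this list were at 0 in siSCR and at no more than 0.12 TPM in siChd4. Of all 8 genes listed, 7 were above 0. Col3a1 was lower, at 0.07 TPM in siChd4, against 0.22 TPM in siSCR (fold 0.318, 0.0541 to 1.19). The striated muscle list summed to 11.8 TPM in siChd4 cells and 3.31 TPM in siSCR cells. Both genes with a mean of at least 1 TPM were at least 1.5-fold higher, Actc1 (fold 19.4, 6.04 to 196) and Tnnt1 (fold 2.5, 1.51 to 4.27). Actc1 was at 4.08 TPM in siChd4, against 0.21 TPM in siSCR, from 48 and 2.37 estimated counts. It reached a mean of 1 TPM only through siChd4, so its place in this count was partly fixed by the filter. The endothelial list summed to 2.46 TPM in siChd4, against 1.41 TPM in siSCR. Epithelial markers summed to 0.24 TPM in siChd4 cells and 0.38 TPM in siSCR cells. The part of cell type proportions in the filament levels was not tested.

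**Figure D5:**
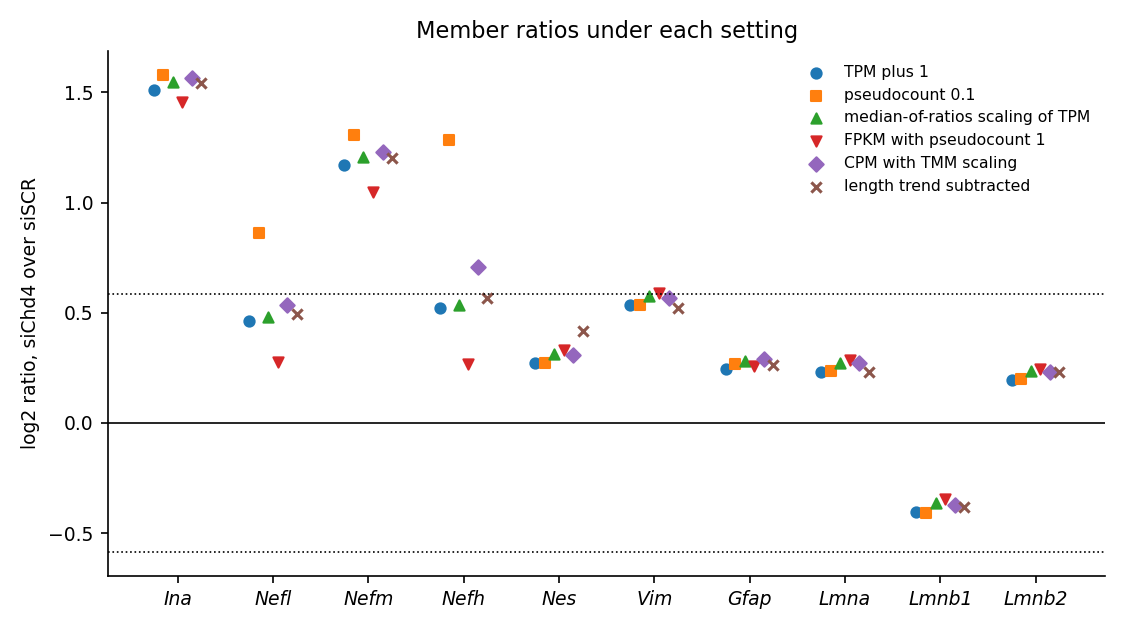
Log2 ratios for each member, siChd4 over siSCR, under the TPM plus 1 measure and 5 other settings; dotted lines mark 1.5-fold. Each member keeps its side of 0 under all of them. Vim crosses 1.5-fold on FPKM (0.59). Nefl and Nefh spread most and cross it with a pseudocount of 0.1 (0.86 and 1.28), and Nefh also on CPM (0.71).

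Across these settings no member changed sign. Ina lay between 1.46 and 1.58 and Nefm between 1.05 and 1.31. The widest spans were those of the scarce genes, with Nefh between 0.27 and 1.28 and Nefl between 0.28 and 0.86. Vim crossed the 1.5-fold limit on FPKM, at 0.59, and stayed under it otherwise. The transcript length implied by counts and TPM was nearly the same in both libraries for all members, with ratios of 0.998 to 1.01, so that TPM folds and count ratios differ by library scaling only.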

How the data were processed

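The authors deposited 1 table with FPKM, TPM and read counts per gene for each library, per the file headers. The deposited counts are estimated counts, since 17.8% (siChd4) and 16.0% (siSCR) of them were whole to within 0.001. The deposited TPM values sum to 1000000 per library, and the deposited FPKM values are fragments relative to length and library size. Per the submitters' processing notes, reads were placed on mm39. No source used here names the aligner, counting tool, strand setting or filters.

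The main measure was log2((TPM + 1) of siChd4 over siSCR), for the 12882 genes whose mean TPM reached 1. Exact 95% intervals (Clopper-Pearson for 1 gene, conditional odds ratio for a pair of genes) used estimated counts rounded to whole numbers. They cover counting error only: without molecular identifiers, reads may be copies of 1 molecule. A floor of 3 counts was 0.149 CPM in siChd4 and 0.151 CPM in siSCR. Implied transcript length was the estimated count over TPM, scaled by library. Genes of a like level have a mean TPM within 2-fold. The intervals for 1 gene were checked on simulated counts that held counting error only. An exact interval holds in that setting by design, so the check does not cover read copies or uncertain assignment of reads.

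Members and gene lists were chosen with earlier results of these data known. An item of 1 list is not reported here. The text names all members and Chd4, and from each other list up to 3 genes per direction past 1.5-fold, or the 2 most abundant where none passed. Sox2, Fabp7, Sun2, Plec, Nt5c2, Acta2, Col3a1, Dcn and Lum were named after their values were seen. So were Aldh1l1, Glul, Map2, Gap43, Rbfox3, Stmn2 and the genes under other observations. Alternatives were a pseudocount of 0.1, median-of-ratios scaling, FPKM, CPM from the counts with TMM scaling (edgeR 4.0.16, used for scaling only), subtraction of the lowess trend with transcript length (span 0.3, statsmodels 0.14.6), a minimum mean TPM of 5 or none, and a 2-fold limit. Python 3.11.15, scipy 1.17.1 and R 4.3.3 were used. Promoter windows came from RefSeq (GRCm38.p6) and exon overlaps from GENCODE M21, which are of another build than mm39 and were not joined to coordinates of the data.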

Additional observations from a re-analysis of the deposited data

How the results depend on the processing

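Of 50 member ratios under 5 other settings, 41 stayed within the counting interval, 9 moved beyond it, and 0 changed sign. Among members passing the mean TPM filter, the count past 1.5-fold was 2 higher and 0 lower in each setting, except on FPKM (3 higher). Nefl and Nefh, under a mean of 1 TPM, entered this count only with no filter. With a pseudocount of 0.1 they lay past 1.5-fold, at 0.86 and 1.28, as did Nefh on CPM, at 0.71. The log2 ratio of Chd4 was -0.29, and -0.14 once the length trend was subtracted, -0.23 for FPKM and -0.25 with median-of-ratios scaling. The neuronal filament median was 1.34, and 0.85 with no filter, because Nefl and Nefh then enter with a pseudocount as large as their level. The median of Nes, Vim and Gfap, which is the value of Nes, ran from 0.27 to 0.42, and that of the lamins, which is the value of Lmnb2, from 0.19 to 0.24. Genes past 1.5-fold numbered 870 higher and 576 lower, against 533 higher with a mean TPM of at least 5, where fewer genes are tested, 295 lower on FPKM, and 291 higher and 81 lower at a 2-fold limit. The cause of the FPKM count was not tested. No setting moved the median of all genes by more than 0.1. Leaving out a library was not run, since each group held 1. Depth limits Nefl, Nefh and Gfap. No paired analysis was possible because there was a single library on each side.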

Other observations

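Further intermediate filament genes were listed at various levels. Des, of muscle, was at 1.0 TPM in siChd4, against 0.29 TPM in siSCR, from 25 and 7 estimated counts (fold 3.45, 1.45 to 9.44). Prph, the filament gene of peripheral neurons, was at 0.44 TPM in siChd4 cells and 0.14 TPM in siSCR cells, from 6 and 1.85 estimated counts, a fold of 3.14 whose interval of 0.520 to 29.5 includes 1. The epithelial keratin genes Krt8 and Krt18 were at 0.06 and 0.18 TPM in siChd4, and at 0.36 and 0.28 TPM in siSCR. Krt10 was the 1 keratin gene of the list with a mean of at least 1 TPM, at 4.73 TPM in siChd4, against 4.54 TPM in siSCR.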
